A study of Mus musculus with 15 samples.

Results

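Transcript levels of 8 genes of cholesterol synthesis and of its control were compared across microdissected proximal tubules and whole kidney of the mouse. The genes were chosen by name, for their place in the pathway, with earlier results of these data known. They were Srebf2, Hmgcs1, Sqle, Idi1, Fdft1, Lss, Dhcr7 and Insig1, out of 47069 genes in the table. All 8 were found there and all 8 had a mean of at least 1 TPM. TPM is a transcript abundance corrected for transcript length and scaled to the same total in each library, so levels can be set side by side between genes. The samples were 15 libraries of polyA RNA from kidneys of male C57BL/6 mice aged 2 months. Each of 12 libraries came from a single tubule dissected by hand and labelled PTS2, in 3 sets (m1, m2 and m3) of 4, and 3 libraries came from whole kidney. The labels state neither what m and the numbers 1 to 4 stand for nor whether libraries came from separate animals, so the p-values below measure only the spread between these libraries.

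Cholesterol is built from acetyl-CoA through mevalonate, isoprenoid units, squalene and lanosterol. The transcription factor SREBP2, encoded by Srebf2, is made as a precursor held in the endoplasmic reticulum. When membrane sterols fall, the escort protein SCAP carries it to the Golgi, proteases release its active part, and that part switches on the genes of the synthesis enzymes. INSIG1 and INSIG2 hold SCAP back when sterols are plentiful, and Insig1 is itself a target of SREBP2. The epithelium of the proximal tubule reabsorbs filtered solutes and proteins through a large apical membrane.

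The label of the tubules was checked against segment markers. In PTS2, the 3 markers of the early S1 segment summed to at most 9.05 TPM, where whole kidney held at least 1804 TPM. The markers of the middle S2 segment went different ways: Slc22a6 averaged 585 TPM over the tubules and 486 TPM over the kidney libraries, while Slc22a8 averaged 68.02 and 272 TPM, with its highest tubule (161 TPM) below the lowest kidney library (261 TPM). The 3 markers of the late S3 segment summed to 2052 to 3922 TPM, above the 968 to 1216 TPM of whole kidney. Of these, Slc7a13 and Slc22a7 were above kidney in every tubule. Cyp4a14 was above the kidney range (7.11 to 32.97 TPM) in m1 and m2 (37.1 to 76.6 and 153 to 254 TPM). In m3 it lay within that range, at 11.1 to 12.94 TPM. The markers therefore do not single out S2, and PTS2 is used below as the label only. Of 29 markers of 10 other cell types, 27 were lower in every tubule than in every kidney library. The share among all genes tested was 32%. The exceptions were Csf1r, with means of 39.1 TPM in PTS2 and 21.1 TPM in kidney, and Cd3e, with 0.0267 and 0.327 TPM. Of the 29 markers, 18 had a median of at most 1 TPM in PTS2, and 0 were at 0 in all tubules. Their sum was 74.2 to 149 TPM in 11 tubules, 1497 TPM in m3 replicate 3 and 3706 to 4257 TPM in whole kidney.

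SREBP2 binds sterol regulatory elements, usually beside a binding site of the CCAAT-box factor NF-Y, so promoters of a target enzyme, of the factor itself and of its retention protein are shown. The stretches are from RefSeq (mouse, GRCm38.p6), run up to 250 bases before the RefSeq start, lie on the + strand upstream of the genes' annotated exons, and are read 5′ to 3′. Capitals mark matches to TCACNCCA (letters of a sterol regulatory element) and to CCAAT, read as ATTGG on the other strand.
Hmgcs1, chr13:119690101-119690350: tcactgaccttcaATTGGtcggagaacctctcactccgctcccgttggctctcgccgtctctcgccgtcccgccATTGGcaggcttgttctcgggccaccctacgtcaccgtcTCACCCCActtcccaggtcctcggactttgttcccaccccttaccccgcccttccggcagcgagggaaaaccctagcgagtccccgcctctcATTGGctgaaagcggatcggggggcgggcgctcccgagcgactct
Srebf2, chr15:82147019-82147180: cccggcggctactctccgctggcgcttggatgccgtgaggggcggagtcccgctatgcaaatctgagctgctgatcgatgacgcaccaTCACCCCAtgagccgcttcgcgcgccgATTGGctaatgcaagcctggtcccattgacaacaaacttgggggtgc
Insig1, chr5:28071162-28071362: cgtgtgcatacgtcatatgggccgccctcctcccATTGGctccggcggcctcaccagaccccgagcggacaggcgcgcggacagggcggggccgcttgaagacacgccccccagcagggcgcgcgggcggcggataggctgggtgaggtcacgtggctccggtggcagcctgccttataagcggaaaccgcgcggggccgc

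The TCACNCCA match began 137 bases before the start of Hmgcs1 and 162 bases before that of Srebf2, and the Insig1 stretch held a CCAAT match only. Over the whole RefSeq windows, searched on both strands, 2 of 8 promoters of the genes held TCACNCCA and 6 of 8 held CCAAT. Among all 32851 mouse promoters of the same length the shares were 4.36% and 37.4%. The 8 windows belong to 6 of the genes, Dhcr7 having 3. Sqle and Fdft1 had no entry. The letters were chosen after the sequences had been read, and a match describes the sequence only.

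Levels of the 8 genes spanned a wide range within the same libraries. In PTS2 the order of the mean levels was Hmgcs1, Sqle, Idi1, Insig1, Lss, Fdft1, Srebf2 and Dhcr7, from 556 to 5.775 TPM. Hmgcs1 was above Sqle, Sqle above Idi1, Idi1 above Insig1 and Insig1 above Lss in 12 of 12 tubules. The lower neighbours were closer: Lss exceeded Fdft1 in only 6 of 12, Fdft1 exceeded Srebf2 in 10 and Srebf2 exceeded Dhcr7 in 11. In whole kidney the 4 highest and the lowest gene were the same, and Fdft1, Srebf2 and Lss, all between 11.7 and 18.95 TPM, overlapped.

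**Figure D1:**
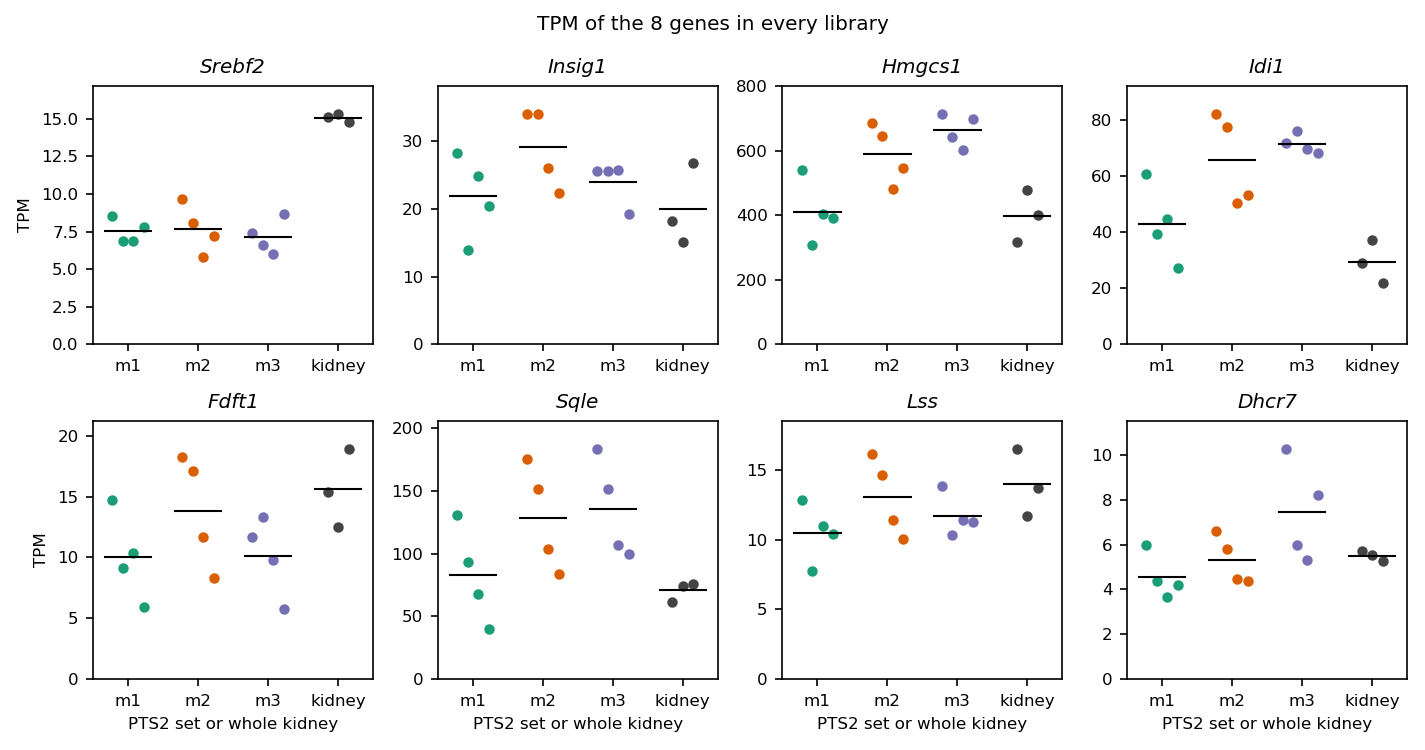
TPM (linear axes from 0) of the 8 genes in each of the 12 PTS2 libraries, by set, with numbers 1 to 4 placed left to right, and in the 3 whole kidney libraries. Horizontal lines are group means. Every tubule lies below every kidney library for Srebf2, and 11 of 12 tubules lie above every kidney library for Idi1.

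Between PTS2 and whole kidney, the 8 genes did not move together. Srebf2 was lower in the tubules, at about 0.494 of its kidney level, while the isomerase gene Idi1 was 2.06 times as high. These were the calls by limma at an adjusted p under 0.05: 1 of 8 higher and 1 of 8 lower, where 9.68% of all 12039 genes tested were higher and 41.5% lower. The 8 had a median log2 difference of 0.16, where all genes tested had −0.27. That background moved with the scaling. After median-of-ratios rescaling the median over all genes was 0.00 and 23.7% were called higher and 23.1% lower, and after quantile normalization it was 0.16 with 34.6% and 18.9%. Log2 differences of the 8 genes are therefore given as fitted and relative to the median gene (−0.27), and those of other genes as fitted. They were computed on log2(TPM + 1), which understates changes of low genes.

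Srebf2 (ENSMUSG00000022463; GRCm38 chr15:82147181-82205379, + strand), the gene of the regulator, was among the lower of the 8. In m1 it stood at 8.56, 6.88, 6.87 and 7.81 TPM (numbers 1 to 4, as below), with m2 at 9.7, 8.06, 5.78 and 7.19 TPM and m3 at 7.4, 6.61, 5.99 and 8.64 TPM. The kidney libraries held 15.2, 15.4 and 14.8 TPM. The groups did not overlap, as for 32% of all genes in this direction: the highest tubule was well under the lowest kidney library. The means were 7.46 ± 1.15 TPM (SD, n = 12) and 15.1 ± 0.296 TPM (SD, n = 3), or −0.94 ± 0.13 on the log2 scale (SE, limma adjusted p = 1.31e-05), or −0.67 relative to the median gene. With each library left out in turn the adjusted p was at most 0.00023, and rescaling gave −0.67 and quantile normalization −0.42, both still called lower. In such mixed samples, fewer cells of a type and less RNA per cell cannot be told apart. Most markers of non-proximal cells were also lower in PTS2 (above), and their part in this difference was not tested.

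Insig1 (ENSMUSG00000045294; chr5:28071363-28078662, + strand), the gene of the retention protein, overlapped between tubules and kidney. Set m1 held 28.2, 13.9, 24.9 and 20.5 TPM, m2 held 34.0, 33.95, 26.1 and 22.3 TPM and m3 held 25.5, 25.6, 25.7 and 19.2 TPM. Kidney values were 18.1, 15.1 and 26.8 TPM. Only 3 tubules were above every kidney library, and 1 was below. On the log2 scale the groups differed by 0.31 ± 0.21 (SE, limma adjusted p = 0.230), and 0.58 relative to the median gene. It passed the threshold with median-of-ratios rescaling (0.59, adjusted p = 0.0244) and with quantile normalization (0.72, adjusted p = 0.0065), so its call rested on the scaling.

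Hmgcs1 (ENSMUSG00000093930; chr13:119690379-119708260, + strand) encodes the cytosolic HMG-CoA synthase, an early enzyme of the mevalonate pathway, and had the highest level of the 8. Values in m1 were 541, 309, 403 and 393 TPM, those of m2 were 687, 645, 483 and 547 TPM and those of m3 were 715, 644, 603 and 697 TPM. Whole kidney held 317, 479 and 400.02 TPM. Here 9 of 12 tubules were above every kidney library and 1, m1 replicate 2, was below. The means were 556 ± 134 TPM (SD, n = 12) and 399 ± 80.8 TPM (SD, n = 3), which is 0.45 ± 0.21 on the log2 scale (SE, limma adjusted p = 0.0829) and 0.72 relative to the median gene. It passed the threshold without m1 replicate 2 (adjusted p = 0.0208) and with median-of-ratios rescaling (0.75, adjusted p = 0.00262), but not with quantile normalization (0.36, adjusted p = 0.165) or with 1 mean per set (adjusted p = 0.0979).

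Idi1 (ENSMUSG00000058258; chr13:8885501-8892451, + strand) encodes the isomerase that interconverts both 5-carbon isoprenoid units, and it was higher in PTS2. Tubules of m1 held 60.95, 39.5, 44.7 and 27.3 TPM, those of m2 82.4, 77.5, 50.5 and 53.2 TPM and those of m3 72.0, 76.2, 69.9 and 68.4 TPM. Kidney libraries held 29.0, 37.1 and 21.8 TPM, so that m1 replicate 4 alone fell among them and 11 tubules were above. On the log2 scale Idi1 rose by 0.99 ± 0.26 (SE, limma adjusted p = 0.00492), or 1.25 relative to the median gene. It stayed past the threshold with each library left out in turn (adjusted p from 0.000454 to 0.0477), with rescaling (1.27) and with quantile normalization (1.28).

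Fdft1 (ENSMUSG00000021273; chr14:63145150-63179578, − strand) encodes squalene synthase, which commits isoprenoids to sterols. It was at 14.7, 9.13, 10.4 and 5.93 TPM in m1, while m2 held 18.2, 17.1, 11.7 and 8.3 TPM and m3 held 11.7, 13.3, 9.79 and 5.78 TPM, against 15.3, 12.5 and 18.95 TPM in kidney. None of the 12 tubules exceeded the highest kidney library, and 8 were below the lowest. The difference missed the threshold (log2 −0.48 ± 0.28, limma adjusted p = 0.159), was −0.21 relative to the median gene, and was 0.01 with quantile normalization. Its exons overlap those of Ctsb, a cathepsin gene on the opposite strand at 244 TPM in PTS2 and 310 TPM in kidney, whose reads cannot be told apart from those of Fdft1 if strand was not used.

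Sqle (ENSMUSG00000022351; chr15:59315077-59331192, + strand) encodes squalene epoxidase, a rate-limiting enzyme of the sterol branch, and varied most. The m1 tubules held 131, 93.4, 68.2 and 39.7 TPM, the m2 tubules 175, 152, 103 and 84.2 TPM and the m3 tubules 184, 152, 107 and 99.7 TPM. Whole kidney held 61.8, 74.3 and 76.2 TPM. The highest tubule was 4.64 times the lowest, against 1.68 times for Srebf2. Although 10 tubules were above every kidney library, m1 replicate 4 was below all of them. The log2 difference of 0.60 ± 0.34 missed the threshold (limma adjusted p = 0.146), was 0.87 relative to the median gene, and was past the threshold without m1 replicate 4 (adjusted p = 0.0244) and with median-of-ratios rescaling (0.89, adjusted p = 0.0307), but not with quantile normalization (0.74, adjusted p = 0.0605).

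Lss (ENSMUSG00000033105; chr10:76531588-76557138, + strand) encodes lanosterol synthase, which closes the sterol rings, and Dhcr7 (ENSMUSG00000058454; chr7:143823145-143848410, + strand) encodes the last reductase before cholesterol. For Lss, m1 held 12.9, 7.73, 11.01 and 10.4 TPM, m2 held 16.2, 14.6, 11.4 and 10.01 TPM and m3 held 13.9, 10.3, 11.4 and 11.3 TPM, against 16.5, 11.7 and 13.7 TPM in kidney. Its groups overlapped, with 8 tubules below every kidney library and 0 above, and its difference of −0.24 ± 0.16 missed the threshold (limma adjusted p = 0.230). It was 0.03 relative to the median gene, and with median-of-ratios rescaling and quantile normalization it turned to 0.03 and 0.28. For Dhcr7, m1 held 5.99, 4.38, 3.68 and 4.21 TPM, m2 held 6.59, 5.81, 4.47 and 4.38 TPM and m3 held 10.3, 5.99, 5.32 and 8.2 TPM, against 5.7, 5.53 and 5.28 TPM in kidney. The tubules lay on both sides of the narrow kidney range, 6 above and 5 below it. Its difference was 0.01 ± 0.21 (limma adjusted p = 0.961), or 0.28 relative to the median gene, and quantile normalization gave 0.76 (adjusted p = 0.00137).

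The neighbouring steps of the pathway were as uneven. Of 19 sterol synthesis enzymes tested, 4 were called higher in PTS2 (Mvd, Idi1, Cyp51 and Ebp) and 1 lower (Fdps), with a median log2 difference of 0.01. Among all genes tested, 9.68% were called higher and 41.5% lower, with a median of −0.27, so these enzymes were seldom among the lower genes. Those shares moved with the scaling (above). Cyp51, the lanosterol demethylase that follows Lss, had means of 356 ± 94.1 TPM in PTS2 (SD, n = 12) and 142 ± 23.3 TPM in kidney (SD, n = 3) and was higher by 1.28 ± 0.22 on the log2 scale (limma adjusted p = 0.000162). Ebp, a sterol isomerase, was higher by 0.66 and Mvd, which makes the substrate of Idi1, by 0.55. For both, every tubule was above every kidney library, as for 5.76% of all genes tested. Fdps, which makes the substrate of Fdft1, differed by −0.66 (limma adjusted p = 0.0107), a call lost without kidney replicate 3 (0.0602) and with median-of-ratios rescaling and quantile normalization (0.139 and 0.115).

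**Figure D2:**
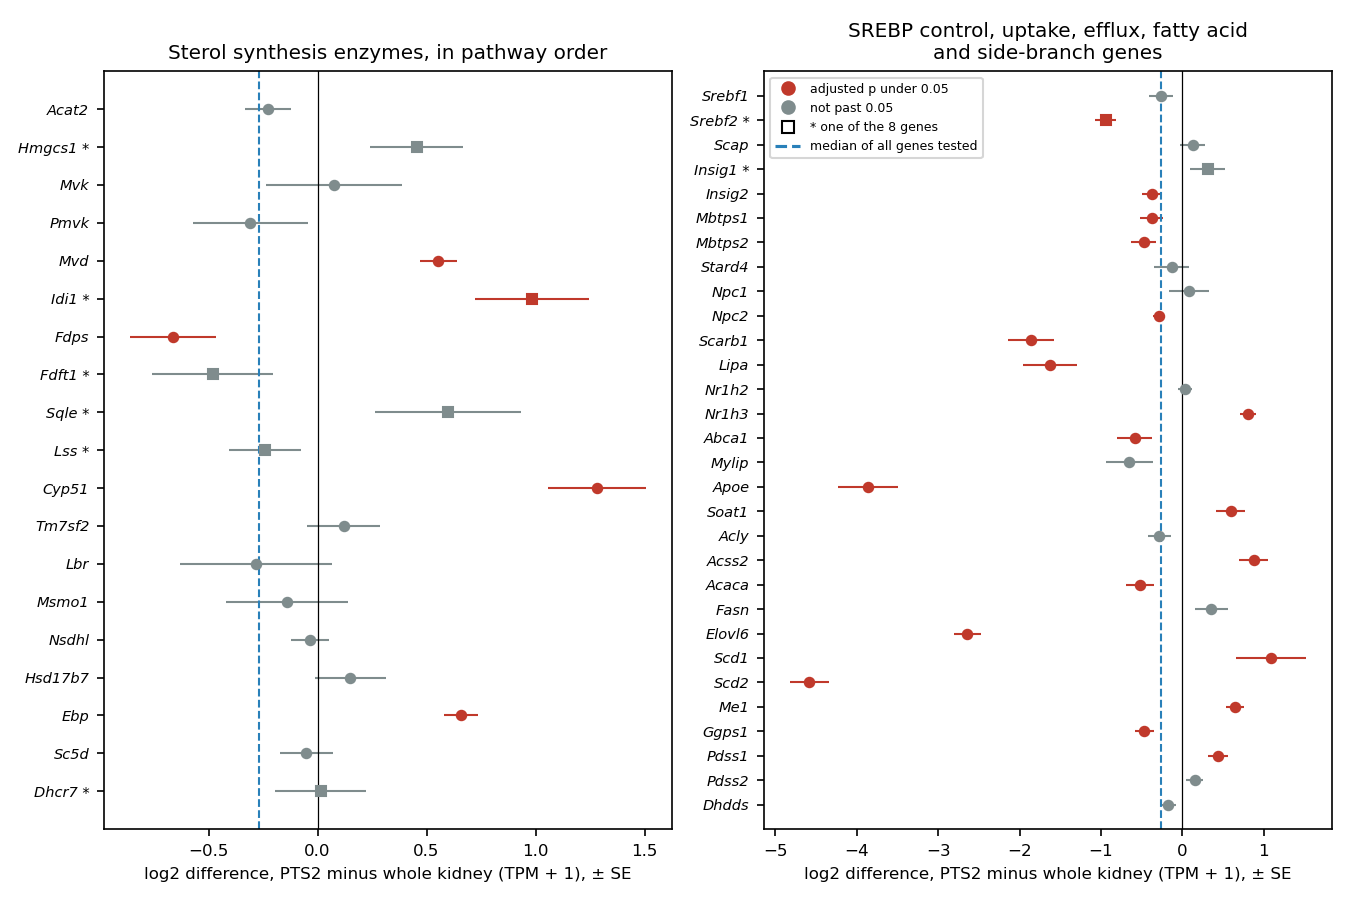
Fitted log2 differences of TPM + 1 (PTS2 minus whole kidney, points with ± SE, limma) for 19 sterol synthesis enzymes in pathway order (left) and for genes of SREBP control, cholesterol uptake and efflux, fatty acid synthesis and side branches (right). Squares with * are the 8 genes, red marks an adjusted p under 0.05, and the dashed line is the median of all genes tested at −0.27; Idi1 and Srebf2 are the red squares.

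Of the 7 genes of SREBP processing and its control, 0 were called higher and 4 lower: Srebf2, Insig2 (−0.38), and the protease genes Mbtps1 (−0.38) and Mbtps2 (−0.48). With 41.5% of all genes called lower, this count is near the background. The calls of Insig2, Mbtps1 and Mbtps2 were lost with either rescaling, Mbtps2 turning to 0.35 with quantile normalization. They were also lost without kidney replicate 1 (limma adjusted p 0.0646, 0.0721 and 0.0515) and without kidney replicate 2 (0.111, 0.103 and 0.0969), and that of Mbtps1 without kidney replicate 3 (0.0839). Srebf1 (−0.26) and Scap (0.13) did not pass. Srebf2 was thus the 1 gene of this list whose lower level was called under each of these scalings.

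Among genes of cholesterol uptake, storage and export, Scarb1, Lipa and Apoe were lower by more than any synthesis enzyme. Of 5 uptake and transport genes, 0 were higher and 3 lower, again near the 41.5% of all genes: the HDL receptor gene Scarb1 (−1.85), the lysosomal lipase gene Lipa (−1.63) and Npc2 (−0.29; −0.01 after median-of-ratios rescaling). Of 6 efflux genes tested, the LXR gene Nr1h3 (0.81) and the gene Soat1 of the acyltransferase that forms cholesteryl esters (0.59, lost without kidney replicate 1 at adjusted p = 0.0767) were higher. Apoe, at 23.2 and 309 TPM (−3.86), and Abca1 (−0.59) were lower by limma, the latter lost without any 1 of the kidney libraries (0.0758, 0.0540 and 0.115). Of 8 genes of fatty acid synthesis, 3 were called higher and 3 lower, where 9.68% of all genes were called higher and 41.5% lower. Acss2 (0.88) and Me1 (0.65) were higher at 512 and 540.4 TPM, Elovl6 (−2.64) and Scd2 (−4.58) averaged under 1 TPM in PTS2, and the calls of Scd1 (1.09) and Acaca (−0.52) were lost in 9 of 15 fits with a library left out (limma adjusted p up to 0.181) and without kidney replicate 2 or 3 (0.0638 and 0.234). In the side branches of the pathway, Pdss1 was higher by 0.43 and Ggps1 differed by −0.46, calls that were lost without kidney replicate 1 (0.0540) and with rescaling (0.153), respectively. The lower levels of Apoe, Scd2 and Elovl6 went with the lower sum of the non-proximal markers, whose part was not tested.

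Among the PTS2 sets, m1 had the lowest mean of 7 of the 8 genes, and the difference passed the test for Hmgcs1. The limma F test over the 3 sets called 1 of 8, where 3.02% of 11300 genes were called. For sets m1, m2 and m3, Hmgcs1 means were 411 ± 96.2, 590.4 ± 92.8 and 665 ± 51.2 TPM (SD over 4 libraries; F test, limma adjusted p = 0.0395). Of the pairs, m3 against m1 was called, with a log2 difference of 0.72 ± 0.15 (limma adjusted p = 0.0225), and the highest library of m1 (541 TPM) was below the lowest of m3 (603 TPM). In that comparison 1 of 8 was called higher, where 2.23% of all genes were. The calls were close to the threshold. Without m1 replicate 3, m1 replicate 4, m3 replicate 1 or m3 replicate 2, the adjusted p of m3 against m1 was 0.0602, 0.0578, 0.0795 and 0.0504. That of the F test stayed under 0.05 only when m1 replicate 1 or m2 replicate 3 was the library left out (range 0.00572 to 0.107 over 12 fits), and without a filter on low values the adjusted p was 0.0877 for m3 against m1 and 0.157 for the F test. Without m3 replicate 3, the library with raised non-proximal markers, the call of m3 against m1 held and the F test gave 0.0655.

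For the other members, differences between sets did not pass the test in this fit, which has no term for the number. Idi1 had set means of 43.1 ± 13.9, 65.9 ± 16.4 and 71.6 ± 3.38 TPM, in the same order, and its libraries did not overlap between m1 and m3 (log2 0.77 ± 0.21, limma adjusted p = 0.0691), as for 6.37% of all genes in this direction. Without m1 replicate 1, its adjusted p was 0.0142. Sqle had means of 83.2, 129 and 136 TPM (m3 minus m1 0.78 ± 0.33, adjusted p = 0.236), and Dhcr7 4.565, 5.31 and 7.45 TPM (0.58 ± 0.20, adjusted p = 0.144). Insig1, Lss, Fdft1 and Srebf2 differed by 0.16, 0.16, 0.02 and −0.07 between m3 and m1, each smaller than its SE. The median of the 8 was 0.37 for m3 against m1, where all genes had 0.09, and 0.42 for m2 against m1, where all genes had 0.04. These pairs share the m1 libraries. Between m2 and m1, limma called 0 of 8 (2 at an unadjusted p under 0.05; 0.54% of all genes called), and between m3 and m2 it called 0 of 8 (0 unadjusted; 1.97% of all genes called).

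Among the other sterol enzymes, Lbr was the other call between sets. The lamin B receptor, a nuclear envelope protein that also acts as a sterol reductase, had means of 11.5 ± 1.29, 25.1 ± 1.88 and 30.7 ± 5.93 TPM for sets m1, m2 and m3 (SD over 4 libraries; F test, limma adjusted p = 0.00014), and the 4 libraries of m1 were below all other tubules. Of all genes, 2.81% were higher without overlap in m2 than in m1, and 6.37% in m3 than in m1. The Lbr call held with each library left out (limma adjusted p at most 0.000948). The F test called 0 of 7 genes of SREBP control (0 at an unadjusted p under 0.05), 0 of 5 uptake genes (0), 0 of 6 fatty acid genes tested (2) and 0 of 4 side-branch genes (1). Of 6 efflux genes it called 2: from m1 to m3, Abca1 had means of 2.465, 1.365 and 0.97 TPM, and Apoe of 13.98, 16.9 and 38.65 TPM. The Apoe call was lost without m1 replicate 3, m3 replicate 1, m3 replicate 2 or m3 replicate 3, and the Abca1 call without any of 7 of the 12 libraries (limma adjusted p up to 0.0878 and 0.0865). The 3 macrophage markers did not move together in the same order. Csf1r had means of 29.6, 38.7 and 49.2 TPM, C1qa of 1.64, 1.94 and 1.48 TPM and C1qb of 3.38, 4.97 and 3.43 TPM. Their part in the Apoe difference was not tested.

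Sqle and Fdft1 were also lower in the libraries numbered 4 than in those numbered 1. Libraries numbered 4 were compared with those numbered 1 in a limma fit with the set as a block. The labels give the numbers no meaning, and the comparison was chosen after the values had been seen, so its p-values describe these libraries only. All 8 genes had a difference below 0, with a median of −0.44 where all genes had −0.05, and 2 of 8 were called lower, where 3.07% of 11300 genes were. Of the 8, 7 were lower in number 4 than in number 1 in 3 of 3 sets, as were 25.1% of all genes, the exception being Srebf2 (2 of 3).

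Sqle was at 131, 175 and 184 TPM in the libraries numbered 1 of m1, m2 and m3, and at 39.7, 84.2 and 99.7 TPM in those numbered 4, without overlap. On the log2 scale it fell by 1.21 ± 0.13 (SE, limma adjusted p = 0.00174), and it was between −1.36 and −1.01 with any 1 library left out, past the threshold in each fit. Fdft1 was at 14.7, 18.2 and 11.7 TPM in number 1 and at 5.93, 8.3 and 5.78 TPM in number 4, again without overlap, a difference of −1.04 ± 0.15 (limma adjusted p = 0.00379; at most 0.0271 with a library left out). The other differences did not pass: Idi1 −0.61 (adjusted p = 0.0953, or 0.0464 without m3 replicate 1), Insig1 −0.48 (0.266, or 0.0151 without m1 replicate 2), Dhcr7 −0.40, Lss −0.40, Hmgcs1 −0.28 and Srebf2 −0.10. Hmgcs1, the call between sets, overlapped between numbers 1 and 4. Lss and Insig1 did not overlap either, although they missed the threshold, so a lack of overlap alone did not mark the called genes. The share of all genes without overlap between numbers 1 and 4 was not computed, so these cases have no background.

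Several enzymes around Fdft1 and Sqle in the pathway followed the same pattern by number. Of 19 sterol enzymes, 7 were called lower in number 4 and 0 higher, where 3.07% and 1.69% of all genes were. Of these 7, 5 were not among the members. On the log2 scale, Mvk and Pmvk, the kinases of mevalonate and of phosphomevalonate, fell by 1.19 and 1.08. Fdps fell by 0.70, Cyp51 by 0.90 and Msmo1, the sterol methyl oxidase, by 1.06. These 7 calls held in each fit with a library left out, and that of Cyp51 was lost without a filter on low values (0.0519). Acat2, Nsdhl, Ebp and Lbr, at 0.15, −0.07, −0.01 and 0.17, did not pass the test. Counting called and uncalled enzymes, 17 of the 19 were below 0 and 2 above, with a median of −0.40. Among all 11300 genes, 6989 were below 0, with a median of −0.05.

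**Figure D3:**
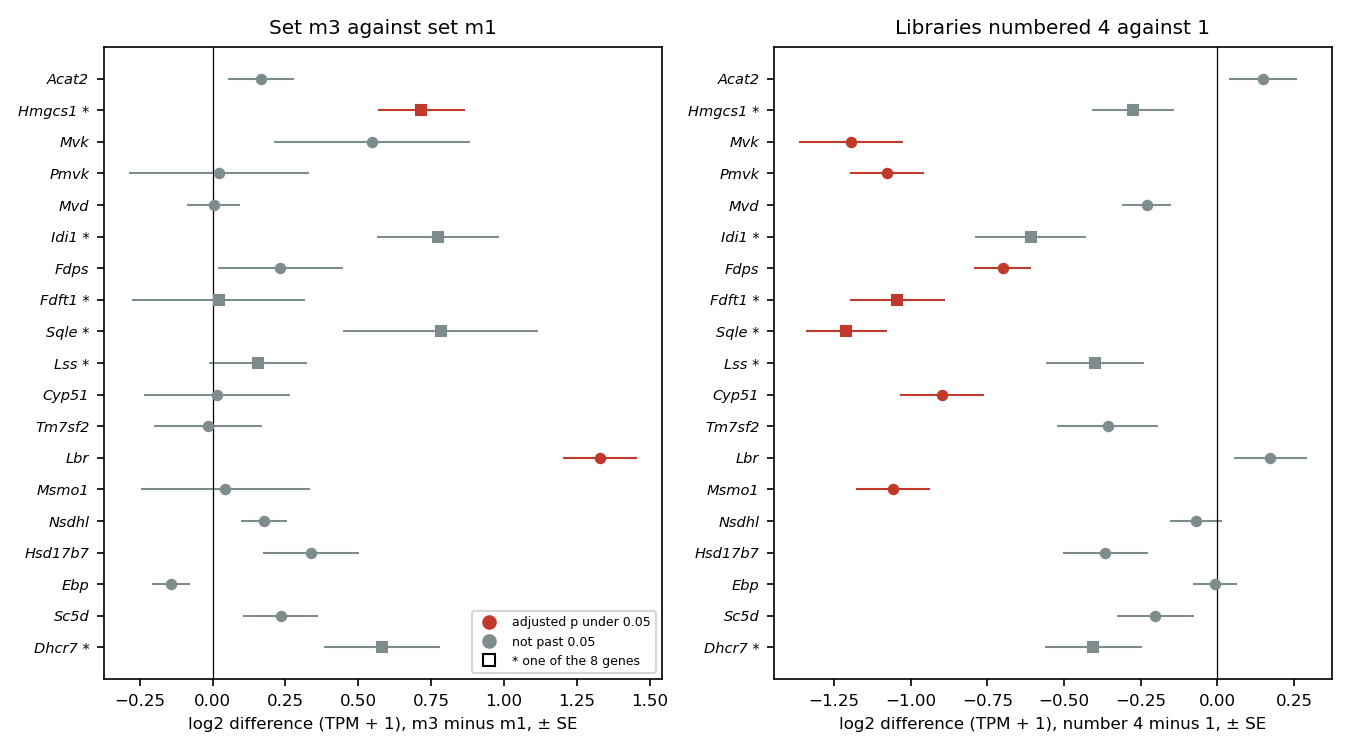
Fitted log2 differences of TPM + 1 (points with ± SE, limma) of 19 sterol synthesis enzymes in pathway order, for set m3 minus set m1 (left) and for libraries numbered 4 minus those numbered 1 (right). Squares with * are members of the 8 and red marks an adjusted p under 0.05: Hmgcs1 and Lbr are red on the left, and 7 enzymes from Mvk to Msmo1 are red on the right, all below 0.

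Outside the synthesis enzymes, Lipa, which frees cholesterol from lysosomal esters, was higher in number 4 in each set, at 35.3 and 77.3 TPM (1.14, limma adjusted p = 0.00274). Of the 7 genes of SREBP control, 0 were called (2 at an unadjusted p under 0.05). The calls of Scd1 (−1.31) and Acss2 (−0.55) were lost without m1 replicate 1 (0.0532 and 0.0675) or m1 replicate 4 (0.0586 and 0.0654), that of Acss2 also without m2 replicate 1 (0.0515), and those of Soat1 (−0.60) and Nr1h3 (−0.34) in 5 and 10 of 12 fits with 1 library removed. Segment markers moved with the number too. The S2 markers summed to 704, 368 and 370.4 TPM in number 1 and to 1149, 892 and 1024 TPM in number 4 of m1, m2 and m3, and the S3 markers to 3610, 3922 and 3581 TPM and to 2052, 2796 and 2690 TPM. The principal cell markers summed to 16.9, 7.84 and 12.9 TPM in number 1 and to 50.02, 21.6 and 30.3 TPM in number 4, higher in each set. Most of this sum was Aqp3, with means of 11.6 and 31.4 TPM in numbers 1 and 4. Aqp2 had means of 0.873 and 2.54 TPM, with a range of 0.12 to 6.9 TPM in number 4, and Scnn1g of 0.05 and 0.0433 TPM. Of the macrophage markers, Csf1r had means of 56.2 and 25.6 TPM in numbers 1 and 4, while C1qa had 1.61 and 2.30 TPM and C1qb 3.22 and 4.31 TPM. The part of these in the lower enzyme levels was not tested.

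**Figure D4:**
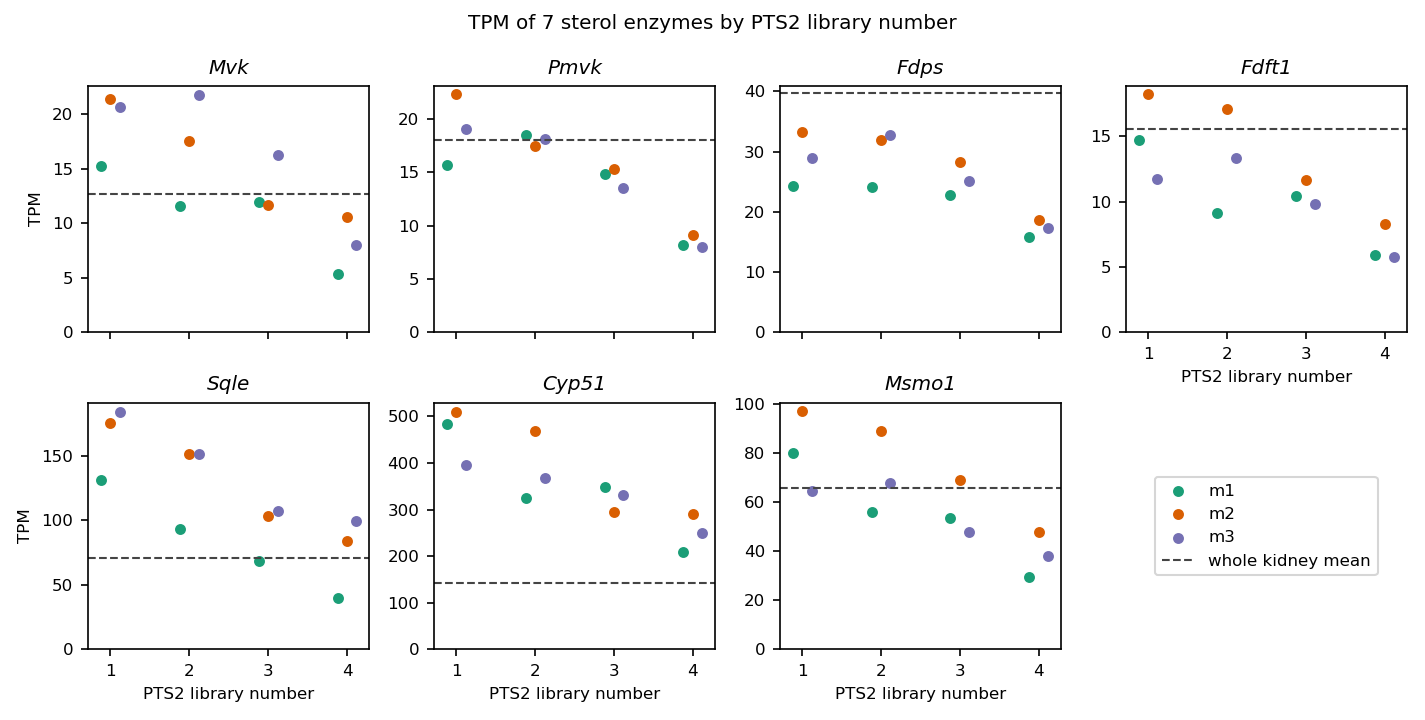
TPM (linear axes from 0) of the 7 sterol enzymes called lower in number 4 than in number 1, by library number and set, with the whole kidney mean as a dashed line. For Sqle and Fdft1, the 3 libraries numbered 4 lie below the 3 numbered 1. The same held for Lss and Insig1, which are not shown and were not called. The share of all genes without such overlap was not computed.

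Genes with the profile most like the 8 over the 12 PTS2 libraries were ranked among 11253 genes, by Pearson r of log2(TPM + 1) with the mean of the 8 standardized genes. The first were Elovl5, an elongase of polyunsaturated fatty acids (r = 0.98, mean 36.6 TPM), Prepl, a peptidase-like protein (0.97), Myo5b, a vesicle motor (0.97), Aplp2, a relative of the amyloid precursor (0.97), and Pls1, an actin bundler of microvilli (0.96). These r describe 12 points that share sets and numbers, and with set means subtracted 1 of the 5 stayed among the first 5, Elovl5 at rank 2. The others then held ranks 6 to 17 of 11253, and r of the 5 was 0.96 to 0.97. Elovl5, Prepl, Myo5b and Aplp2 were highest in number 1 of each set, as were 4 of the 8 genes. Their ranking used the same 12 libraries, so a shared pattern by number follows from the choice and is no further likeness. The share of all genes highest in number 1 of each set was not computed. Elovl5 had means of 44.4, 37.2, 32.8 and 31.8 TPM in libraries numbered 1, 2, 3 and 4, and was at 44.9 TPM in whole kidney.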

How the data were processed

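Transcript abundances of single mouse proximal tubules labelled PTS2 (12 libraries) and whole kidney (3 libraries) were deposited by the authors as TPM values, 1 row per gene. RNA was reverse-transcribed and amplified with a low-input kit, per the labels' protocols. The submitters' processing notes name STAR 2.5.1b, RSEM 1.2.31 and GRCm38.p5, without their roles. TPM keep no depth, so the depth is unknown, no counting interval is given, and no count test was run. The authors' columns of means and errors were left aside.

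Groups come from the sample descriptions. Genes averaging 1 TPM or more in the libraries of a fit were tested with limma 3.58.1 (R 4.3.3; lmFit and eBayes with trend) on log2(TPM + 1). P-values were adjusted by Benjamini-Hochberg over all genes tested, with a threshold of 0.05. PTS2 against whole kidney used the set as a correlated block (correlation 0.0669). The fits were tested on simulated data. Coordinates and overlaps are from GENCODE M21 (46488 of 47069 IDs matched) and promoters from RefSeq. Named were the 8 genes, those of 6 lists (50 genes) past the threshold or next to a member, and the 5 genes most like the members. Some genes of these pathways are not reported here. The members and lists were chosen with earlier results of these data known.

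Alternatives were a pseudocount of 0.1, no filter, a filter at 10 TPM, median-of-ratios and quantile scaling, 1 mean for each set, no within-set correlation, a replicate block, and each library left out. Number 4 against number 1 was added after the data were seen. Tables and figures used Python 3.11.15, pandas 2.3.3 and matplotlib 3.10.9.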

Additional observations from a re-analysis of the deposited data

Results flagged for a closer look

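Within sets of 4 PTS2 libraries, the 8 genes and the other listed genes were searched for a library at 1 end whose distance to the next took up more of the whole spread than Dixon's critical value allows. Of 141 such checks 5 stood out, where chance gives about 1 in 20 (7.05). Insig1 was low in m3 replicate 4, at 19.2 TPM (19.21), with the next library at 25.5 TPM. Nsdhl was low in m2 replicate 4, at 48.6 TPM (48.57; next 54.4). Npc1 was high in m1 replicate 2, at 6.61 TPM (next 2.64). Lipa was high in m3 replicate 4, at 75.3 TPM (75.31; next 29.1), and Me1 in m1 replicate 1, at 683 TPM (682.79; next 492).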

How the results depend on the processing

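A pseudocount of 0.1 TPM and the fit with no within-set correlation changed no call of the 8 genes or of a named gene, and gave 6021 and 6302 genes called against kidney, where 6161 were called as reported. Without a filter on low values, the genes called were 9399 for PTS2 against whole kidney, 196 among sets, 178 for m3 against m1, 111 for m3 against m2 and 175 for number 4 against 1, and 0 members were called among sets and 0 for m3 against m1. With the filter at 10 TPM, 3113 genes were called against kidney and 0 members lower, since Srebf2 was then not tested. Against kidney, 4 members were higher with median-of-ratios rescaling and 3 with quantile normalization, and m2 against m1 had 105 and 107 genes called. Directions turned for Lss against kidney (0.029 and 0.28) and Fdft1 between m3 and m1 (−0.056 and −0.092) with both, and with quantile normalization for Fdft1 (0.015), Abca1 (0.22), Mbtps2 (0.35) and Acaca (0.34) against kidney. With 1 mean per set, 2 members were higher (Sqle joined, limma adjusted p = 0.0371) and 2 lower (Fdft1, 0.0485). With set means subtracted, 1 of the 5 most similar genes stayed in the first 5. Leaving out 1 library at a time gave 1 to 2 members higher against kidney, 197 to 563 genes and 0 to 2 members among sets, 37 to 135 genes and 0 to 1 members for m2 against m1, 160 to 771 genes and 0 to 2 members for m3 against m1, 119 to 313 genes for m3 against m2, and 249 to 757 genes for number 4 against 1. Directions then turned for Dhcr7 against kidney (−0.055 to 0.056), and between m3 and m1 for Insig1 (−0.027 to 0.30), Fdft1 (−0.18 to 0.24) and Srebf2 (−0.15 to 0.0014). The cause of these changes was not tested.

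Replicate numbers were not shown to pair the libraries: 7 of 12 same-numbered pairs deviated together with a correlation over 0.1 (0.0254 to 0.273, mean 0.143, other pairs −0.0481), and 9 of 12 libraries correlated best with their own number. With the replicate block, 888 genes and 3 members (Hmgcs1, Sqle and Idi1) were called among sets. The block gave 307 genes and 2 members for m2 against m1, 838 genes and 4 members (with Dhcr7) for m3 against m1, 416 genes for m3 against m2, and 2 members higher against kidney (Sqle joined, limma adjusted p = 0.0154).

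TPM keep no depth, so the counting error of low genes such as Dhcr7 and Srebf2 is unknown.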
